A study of Homo sapiens with 60 samples.

Results

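The long noncoding RNAs NEAT1, MALAT1, UCA1, GAS5, SNHG1, SNHG12, MIR22HG and H19 were followed across 22 treatment groups of SW1783 cells, an established human astrocytoma cell line. They were picked by gene symbol, and all 8 were found among the 60675 gene rows of the table. The choice was made with their values across these same groups already known, so their levels and differences are descriptions, given without a p-value. Filtering on low counts left 17919 genes and 7 of the 8 RNAs; H19 did not pass.

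RNA-seq had been done on 60 libraries taken 24 h after treatment. Wortmannin, LY294002 and thioridazine were each given at 10 µM (3 libraries each). The water extracts were Poria Cocos (poria), Atractylodis Rhizoma (atractylodes), Glycyrrhizae Radix (licorice), Panax Ginseng (ginseng), Angelicae Gigantis Radix (angelica) and Paeoniae Radix (peony), each at a low dose of 20 µg/mL, a medium dose of 100 µg/mL and a high dose of 500 µg/mL. Each dose had 3 libraries, except for angelica and peony, which had 2. The 3 vehicle libraries received DMSO, given as 0.1% for the samples. Wortmannin and LY294002 are inhibitors of phosphoinositide kinases, and thioridazine is a phenothiazine antipsychotic. All groups are 1 cell line, and whether replicates came from separate cultures is not stated, so the spread between libraries may be technical. Sample codes put the vehicle libraries in a separate set, the drugs in set 1, poria and atractylodes in set 2, licorice and ginseng in set 3, and angelica and peony in set 4. Set and treatment therefore cannot be told apart in any comparison with vehicle, whereas the doses of an extract share a set.

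These RNAs act without being translated into a known protein. NEAT1 is the scaffold of paraspeckles, nuclear bodies that hold RNA-binding proteins such as NONO and SFPQ, and it accumulates in many stress conditions. MALAT1 is a very abundant RNA of nuclear speckles, where splicing factors gather. GAS5, SNHG1 and SNHG12 carry small nucleolar RNAs in their introns, and their spliced RNAs are exported, bound by ribosomes and degraded through nonsense-mediated decay; GAS5 was named for its accumulation in growth-arrested cells. MIR22HG is the host of miR-22. UCA1 was described in bladder carcinoma, and H19 is an imprinted RNA abundant in fetal tissues.

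Several host RNAs start with a cytosine followed by a run of pyrimidines, a feature of RNAs whose translation follows growth signalling. The first 50 bases of 5 hosts are printed because the host RNAs fell into different patterns across the treatments; capitals mark the starting run of C or T. The first 4 are from RefSeq GRCh38.p14 and the GAS5 transcript is from GENCODE 29. Of the 35116 promoters of the RefSeq table, 4.07% begin with such a run of at least 5 bases, as SNHG12, SNHG5 and ZFAS1 do and SNHG1 does not.
SNHG12: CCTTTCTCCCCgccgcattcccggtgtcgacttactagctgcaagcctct
SNHG1: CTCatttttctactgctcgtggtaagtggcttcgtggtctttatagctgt
SNHG5: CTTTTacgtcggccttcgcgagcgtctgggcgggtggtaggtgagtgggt
ZFAS1: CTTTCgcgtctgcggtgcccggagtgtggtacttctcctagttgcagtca
GAS5-219: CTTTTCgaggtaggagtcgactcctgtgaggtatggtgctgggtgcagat

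NEAT1 is made as a long form that builds paraspeckles and a short form. Their starts are printed because the deposited values are per gene and do not separate them. Capitals mark the bases that both share: GENCODE 29 annotates NEAT1-202 at 22743 bases and NEAT1-203 at 3524 bases, and the first 413 bases of NEAT1-203 match NEAT1-202 from its base 3 without a gap.
NEAT1-202: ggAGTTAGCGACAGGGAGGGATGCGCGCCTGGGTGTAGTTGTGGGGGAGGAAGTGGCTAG
NEAT1-203: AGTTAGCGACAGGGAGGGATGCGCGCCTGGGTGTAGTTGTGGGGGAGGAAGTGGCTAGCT
The mature arms of the microRNA in MIR22HG are shown with the seed in capitals, since both arms lie inside an exon in all 19 annotated MIR22HG transcripts.
hsa-miR-22-3p: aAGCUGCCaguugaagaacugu
hsa-miR-22-5p: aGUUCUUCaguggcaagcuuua

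On GRCh38 and GENCODE 29, NEAT1 lies on the plus strand of chromosome 11 from 65422774 to 65445540, and MALAT1 follows it on the same strand from 65497688 to 65506516. SNHG1 lies on the minus strand of chromosome 11 (62851988 to 62855914) and H19 on the minus strand of the same chromosome (1995176 to 2001470). GAS5 (173863900 to 173868882) and SNHG12 (28578538 to 28583132) lie on the minus strand of chromosome 1, UCA1 on the plus strand of chromosome 19 (15828206 to 15836326), and MIR22HG on the minus strand of chromosome 17 (1711493 to 1717174). All but NEAT1 and SNHG1 overlap an annotated gene on the other strand. Among the opposite genes that were tested, ZBTB37 shares 801 bases and GAS5-AS1 shares 42 bases with GAS5, WDR81 shares 652 bases with MIR22HG, and TRNAU1AP shares 8 bases with SNHG12. The library kit keeps the strand, but the strand setting of the counting step was not given in the sources used here. Reads from such pairs may not have been told apart.

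Library totals ran from 19446226 to 30870890 counts, with a median of 26045422. The lowest total was that of the library peony high 1. Of 12 astroglial markers, 6 averaged under 1 CPM (counts scaled by library size to a common total) across the libraries; among them, GFAP averaged 0.0874 and AQP4 0.0387 CPM, while VIM averaged 5318 and CD44 2586 CPM. The library licorice medium 3 stood apart from its group, with 475.1 CPM summed over RNAs without a poly(A) tail against 27.7 to 79.2 CPM in all other libraries. Other marker sums also differed from vehicle in groups described below, and their part in the results was not tested. Mitochondrial genome mRNAs summed to 33188 to 39595 CPM with thioridazine, 38670 to 43955 CPM in licorice high and 37472 to 39538 CPM in angelica high, against 44283 to 48575 CPM in vehicle. Several other extract groups also lay wholly below vehicle, among them ginseng high (40278 to 40959 CPM) and angelica medium (37859 to 38097 CPM). These mRNAs were above vehicle with wortmannin (49205 to 54664 CPM) and LY294002 (49234 to 52723 CPM). RNAs without a poly(A) tail summed to 48.1 to 60.4 CPM with LY294002, against 29.7 to 33.8 CPM in vehicle. Several other groups were also wholly above vehicle, among them wortmannin (39.4 to 46.8 CPM), poria high (41.6 to 44.6 CPM) and peony high (36.8 to 56.2 CPM). Epithelial, blood and endothelial markers summed to 309.4 to 319.6 CPM with thioridazine and 336.6 to 351.0 CPM in poria high. In vehicle they summed to 418.5 to 428.1 CPM, and with LY294002 to 449.4 to 495.0 CPM. The 12 astroglial markers summed to 6585 to 6790 CPM with thioridazine and 7105 to 7431 CPM in licorice high, against 8900 to 9293 CPM in vehicle. Peony high was also low, at 7069 to 7834 CPM. Wortmannin (8593 to 8787 CPM), LY294002 (8277 to 8804 CPM) and most other groups lay wholly below vehicle too. The 12 markers of other neural cells summed to 103.6 to 108.6 CPM in licorice high, against 175.8 to 176.9 CPM in vehicle; 7 of these markers averaged under 1 CPM over the libraries, including MOG (0.00441 CPM) and SOX10 (0.00764 CPM), and TUBB3 averaged 113.9 CPM. Levels below are CPM scaled by TMM. A gene is called where edgeR's quasi-likelihood test gave an adjusted p under 0.05 over the 17919 genes.

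MALAT1 was the most abundant of the 8 RNAs and UCA1 the scarcest of the 7 tested. Divided by exon length, so that genes could be compared, MALAT1 averaged 109.8 CPM per kilobase over the 60 libraries. GAS5 averaged 20.1, NEAT1 19.2, MIR22HG 16.1, SNHG1 10.1, SNHG12 4.197 and UCA1 1.12 CPM per kilobase. H19 had 107 counts in all 60 libraries together, between 0 and 6 in a library, and no difference is given for it. Group means spanned the widest range for UCA1, where the highest was 4.71 times the lowest, and for NEAT1, where it was 2.60 times. The corresponding ratio was 1.29 for MALAT1 and 1.27 for MIR22HG.

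The number of the 7 tested RNAs called, beside the share of all tested genes called, differed widely between treatments. Since the RNAs were chosen on these groups, nothing is read from it. With wortmannin 1 was called (31.7% of genes), with LY294002 4 (39.3%), and with thioridazine 4 (48.4%). At the high dose 4 were called in poria (11.6%), 3 in atractylodes (13.9%), 3 in licorice (30.9%), 5 in ginseng (7.25%), 5 in angelica (6.46%) and 4 in peony (20.7%). The medium and low doses called fewer genes of all kinds than the high dose in each extract. At the medium dose 3 were called in poria (1.47%), 0 in atractylodes (1.06%), 3 in licorice (25.2%), 0 in ginseng (0.569%), 4 in angelica (2.91%) and 4 in peony (2.55%). At the low dose 0 were called in poria (0.419%), 1 in atractylodes (0.804%), 2 in licorice (3.29%), 1 in ginseng (0.592%), 2 in angelica (1.75%) and 2 in peony (5.23%). Comparisons without the vehicle were also made. Wortmannin against LY294002 called 4 (16.4%). The high against the low dose called 2 in poria (5.51%), 0 in atractylodes (4.10%), 3 in licorice (18.2%), 0 in ginseng (0.653%), 1 in angelica (0.943%) and 2 in peony (5.90%).

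**Figure D1:**
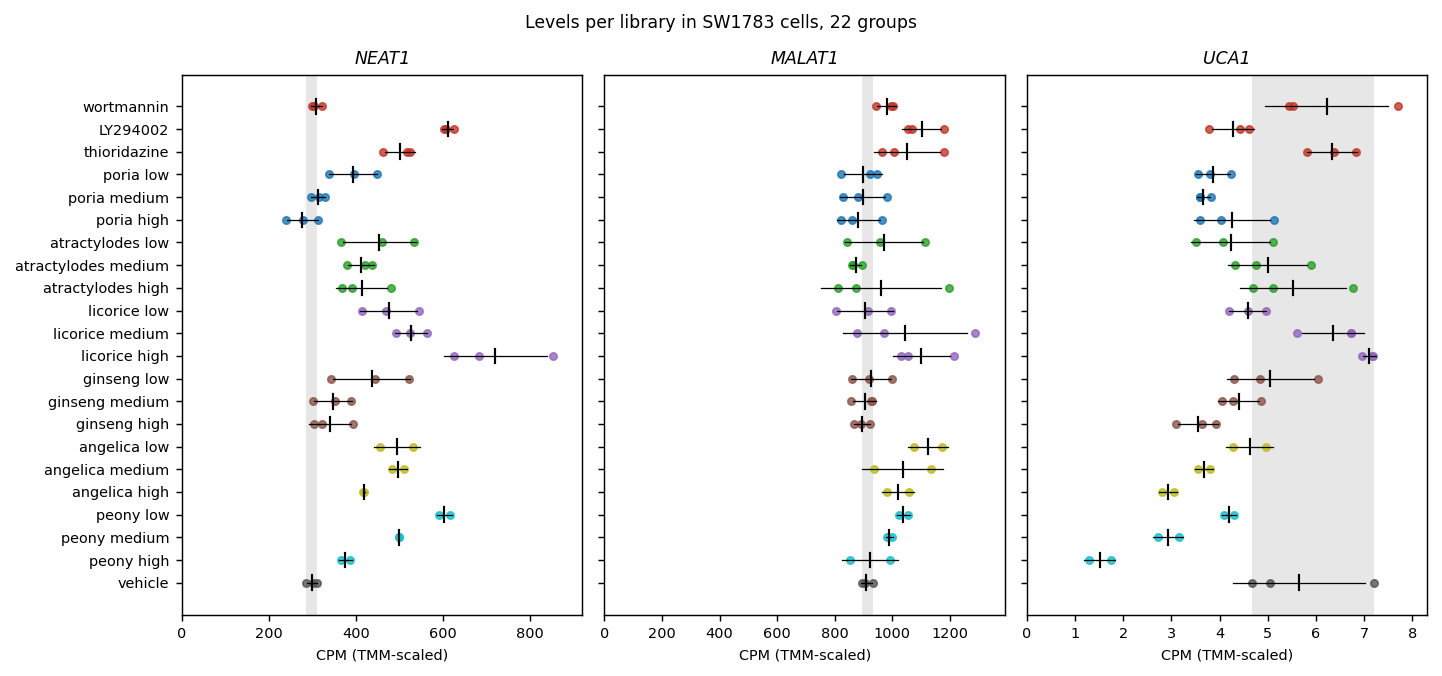
CPM of NEAT1, MALAT1 and UCA1 (horizontal axes) in every library, by group down the page with vehicle at the bottom; points are libraries, vertical ticks group means, horizontal lines 1 SD, and the grey band the range of the vehicle libraries. NEAT1 groups reach from 277.3 CPM (poria high) to 720.7 CPM (licorice high), and UCA1 falls to 1.51 CPM in peony high.

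NEAT1 was higher than vehicle in most groups but not with wortmannin, so the kinase inhibitors differed. With LY294002 the libraries had 625.0, 607.3 and 602.0 CPM, against 285.9, 301.6 and 310.0 CPM in vehicle. This was a log2 fold change of 1.03 ± 0.13 (SE), and no LY294002 library came near the vehicle range. With wortmannin the libraries had 304.3, 299.8 and 322.9 CPM, which overlapped vehicle (0.05 ± 0.13). Set directly against LY294002, wortmannin gave a log2 fold change of -0.98 ± 0.13 in NEAT1. Thioridazine gave 525.4, 516.7 and 462.8 CPM, all above vehicle (0.75 ± 0.13). Because these are bulk samples, fewer expressing cells and less RNA per cell cannot be told apart here or in the results that follow.

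NEAT1 was highest in licorice. Its libraries had 415.0, 468.7 and 545.5 CPM at the low dose, 492.3, 524.7 and 564.3 CPM at the medium dose, and 626.1, 682.6 and 853.4 CPM at the high dose. The log2 fold changes against vehicle were 0.67 ± 0.13, 0.82 ± 0.13 and 1.27 ± 0.13 from low to high dose, and the high dose was 0.60 ± 0.13 above the low dose, with no overlap between them; with only these groups in the fit it was not called. Peony ran the other way. Its NEAT1 levels were 591.9 and 616.3 CPM at the low dose, 499.6 and 500.2 CPM at the medium dose and 365.0 and 386.8 CPM at the high dose. Against vehicle these were 1.01 ± 0.15, 0.74 ± 0.15 and 0.33 ± 0.15, and the high dose lay 0.68 ± 0.16 below the low dose; without replicate 1 of the high dose (-0.64) or replicate 2 of the low dose (-0.65) this was no longer called.

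The other extracts also had their highest NEAT1 mean at the low or medium dose. Poria gave 338.1, 448.9 and 395.6 CPM at the low dose, 297.1, 328.2 and 315.7 CPM at the medium dose and 240.4, 313.0 and 278.4 CPM at the high dose, the lowest group mean of all 22. The high dose of poria was 0.51 ± 0.13 below its low dose, a call that was lost without replicate 2 of the low dose (-0.40), with 3 other single libraries left out, and with only these groups in the fit. Angelica held 456.5 and 531.9 CPM at the low dose and 417.4 and 420.0 CPM at the high dose. In atractylodes and ginseng the high and low doses overlapped. All 6 low doses lay above every vehicle library, with log2 fold changes of 0.40 (poria) to 1.01 (peony), and 5 of them were called. Over the 21 comparisons with vehicle, NEAT1 was called higher in 13 and lower in 0, and its libraries lay wholly above vehicle in 16. Over all genes, a comparison with vehicle called between 0.117% and 24.6% higher (median 2.73%), and libraries lay wholly above vehicle for 8.84% to 30.3% of genes (median 16.9%). These comparisons share the 3 vehicle libraries. The calls for LY294002, thioridazine, the licorice doses, the low and medium doses of peony and the medium dose of angelica were kept under every alternative run. The other 5 (atractylodes high and low, angelica high and low, ginseng low) were lost when some single library was left out. The angelica high call was lost whichever of its own or the vehicle libraries was left out. Those of atractylodes low and ginseng low were lost whichever vehicle library was left out, and with only the groups compared in the fit. Medium-dose libraries were not left out in turn.

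**Figure D2:**
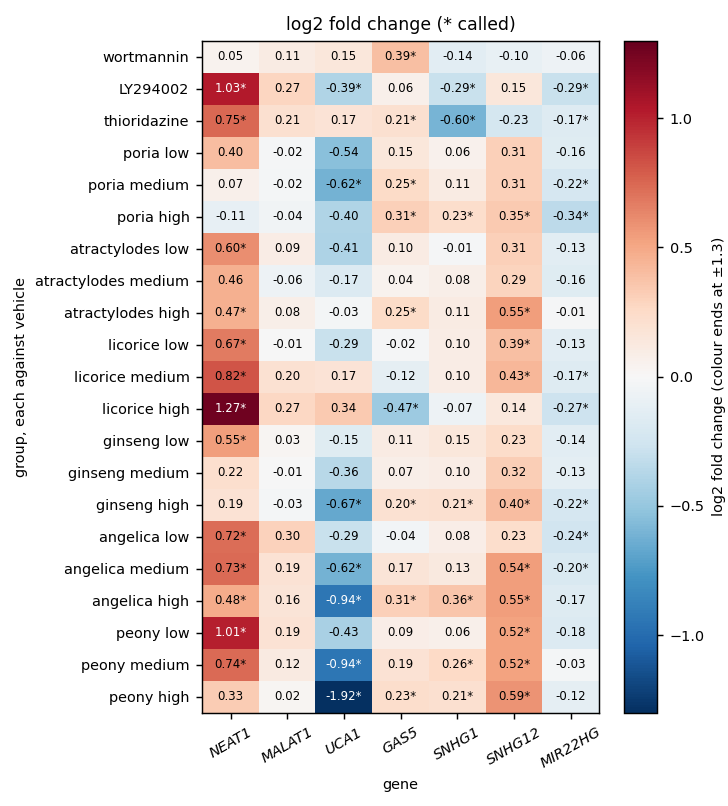
Log2 fold change of the 7 tested RNAs (columns) in each group against vehicle (rows), with red for higher and blue for lower; an asterisk marks a call and the colour ends at ±1.3, which only UCA1 in peony high (-1.92) passes. The NEAT1 column is red in 20 of 21 rows and the MIR22HG column is negative in 21 of 21.

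Within sets 2 and 3, NEAT1 followed the replicate number. In set 2, replicate 1 lay below its group mean in all 6 groups, by 0.18 on the log2 scale on average, and replicate 2 lay above it in all 6 (0.17). In set 3, replicate 1 was below in all 6 (-0.19) and replicate 3 above in all 6 (0.21). The numbers spread less in set 1, where the means of the 3 numbers lay between -0.02 and 0.03. This was not particular to NEAT1. In set 2, SNHG12 replicate 1 was below in all 6 groups (-0.08 on average) and replicate 2 above in all 6 (0.09). In set 3, SNHG1 replicate 1 was below in all 6 (-0.07) and replicate 3 above in all 6 (0.06). MALAT1 in set 2 ran against NEAT1 on average, at 0.14 for replicate 1 and -0.13 for replicate 2.

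MALAT1, which lies downstream of NEAT1 on the same strand, was called in 0 of 21 comparisons with vehicle, a count that depended on the fit. Its means ran from 872.4 ± 20.0 CPM in atractylodes medium to 1124 ± 69 CPM in angelica low (SD, n = 3 and 2), with 910.5 ± 19 CPM in vehicle (n = 3). LY294002 (1055 to 1180 CPM) and licorice high (1030 to 1214 CPM) lay above every vehicle library (895.5 to 931.9 CPM), each with a log2 fold change of 0.27 ± 0.12 that was not called. With no filter on low counts, with only the groups compared in the fit, and without the 3 libraries farthest from their groups, MALAT1 was called higher in both (SE 0.04 to 0.09); several other groups were also called with no filter or with only the groups compared. The highest single library was licorice medium 3, with 1288 CPM, the same library that was high in RNAs without a poly(A) tail. The ratio of NEAT1 to MALAT1, taken in each library and averaged over a group, differed between groups: it was 0.653 in licorice high, 0.557 with LY294002 and 0.582 in peony low, against 0.329 in vehicle. It was 0.315 with wortmannin and 0.318 in poria high. Over the 22 group means, log2 levels of NEAT1 and MALAT1 had a Pearson r of 0.77, a description of points that share the libraries and their scaling.

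Protein genes of paraspeckles were counted in the drug and high-dose groups with the largest NEAT1 differences. Of 14 such genes, 7 were called lower and 0 higher with LY294002, where 19.9% of all genes were called lower (DAZAP1 136.0 against 166.1 CPM in vehicle, -0.29 ± 0.05, edgeR adjusted p = 1.38e-06). With thioridazine 13 of 14 were lower and 0 higher (23.8% of all genes lower), with a median log2 fold change of -0.31 beside 0.02 for all genes tested. RBM14, which is needed to build paraspeckles, had 51.4 CPM against 74.6 CPM in vehicle (-0.54 ± 0.05, adjusted p = 1.87e-12). Licorice high had 8 lower and 1 higher, where 15% of all genes were lower and 15.9% higher: NONO, a core paraspeckle protein, fell to 603.3 CPM, against 800.1 CPM in vehicle (-0.41 ± 0.03, adjusted p = 2.84e-14), and PSPC1, its paralog, was the gene that rose, at 44.9 against 36.3 CPM (0.31 ± 0.05, adjusted p = 2.45e-06). Wortmannin, with which NEAT1 overlapped vehicle, also had 5 lower and 0 higher (16.4% of all genes lower), including HNRNPH3 (-0.37 ± 0.05, adjusted p = 9.11e-09). Of 20 nuclear speckle and splicing genes, 14 were lower and 1 higher with thioridazine and 11 lower and 0 higher in licorice high, beside 23.8% and 15% of all genes lower in these comparisons; CLK1, a kinase of splicing factors, was the 1 that rose with thioridazine (0.32 ± 0.06, adjusted p = 2.35e-06).

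FRMD8, the nearest tested gene upstream of NEAT1 at 9249 bases, was higher with wortmannin (0.38 ± 0.05, edgeR adjusted p = 1.53e-07), LY294002 (0.48 ± 0.05, adjusted p = 3.66e-10) and thioridazine (0.42 ± 0.05, adjusted p = 2.93e-09). It was not called in licorice high (0.05 ± 0.06, adjusted p = 0.583). AP000769.1, the nearest tested gene downstream at 9718 bases, averaged only 0.711 CPM. It was called higher with thioridazine (0.74 ± 0.28) and in licorice high (0.87 ± 0.28), and lower in peony high against low (-1.29 ± 0.37). With wortmannin (0.33 ± 0.30) and LY294002 (0.59 ± 0.29) it was not called. The genes whose group means were most like NEAT1 among 9587 genes with a symbol and at least 5 CPM were WDR6, NICN1 and HDAC6, with Pearson r of 0.88, 0.88 and 0.87 over 22 groups.

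UCA1 was lower with peony, angelica and some other extracts, and its low level limits precision: counts ran from 36 to 207 per library. Peony libraries had 4.09 and 4.30 CPM at the low dose, 2.72 and 3.16 CPM at the medium dose and 1.74 and 1.28 CPM at the high dose, against 5.05, 4.67 and 7.20 CPM in vehicle. All 6 peony libraries lay below vehicle, with log2 fold changes of -0.43 ± 0.17, -0.94 ± 0.18 and -1.92 ± 0.21 from low to high dose. The high dose was 1.5 ± 0.24 below the low dose on the log2 scale, within the same set. Angelica gave 4.28 and 4.97 CPM at the low dose, 3.81 and 3.55 CPM at the medium dose and 3.06 and 2.80 CPM at the high dose; its high dose was at -0.94 ± 0.18 against vehicle.

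Licorice was the extract in which UCA1 was called higher at the high than at the low dose. UCA1 held 4.59, 4.97 and 4.196 CPM at the low dose, 6.72, 6.72 and 5.61 CPM at the medium dose and 7.17, 7.19 and 6.95 CPM at the high dose. The high dose lay 0.63 ± 0.15 above the low dose without overlap. It was not called against vehicle (0.34 ± 0.14), where 1 vehicle library of 7.20 CPM lay above all 3 of them. Ginseng high (3.93, 3.09 and 3.64 CPM) and poria medium (3.59, 3.59 and 3.82 CPM) were below every vehicle library, with log2 fold changes of -0.67 ± 0.15 and -0.62 ± 0.15. Between the inhibitors, wortmannin (5.44, 5.52 and 7.70 CPM) was 0.54 ± 0.15 above LY294002 (4.43, 3.78 and 4.601 CPM), which was not called without wortmannin replicate 3 or LY294002 replicate 2. UCA1 was called lower in 7 of 21 comparisons with vehicle and higher in 0; over all genes, a comparison called between 0.301% and 23.8% lower (median 2.5%). Vehicle replicate 3 was the highest of its group, and without it 4 of these calls were lost: LY294002 (-0.17), ginseng high (-0.46), poria medium (-0.41) and angelica medium (-0.41).

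**Figure D3:**
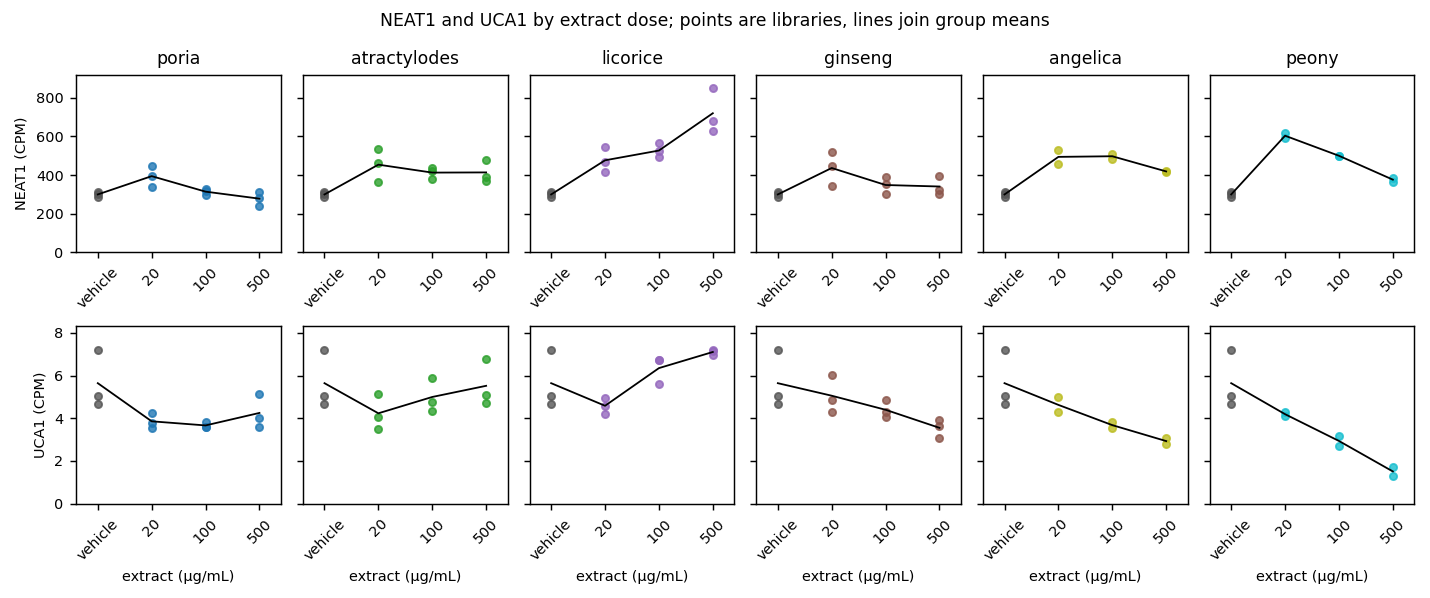
CPM of NEAT1 (top) and UCA1 (bottom) in vehicle and at 20, 100 and 500 µg/mL of each extract; points are libraries and lines join group means. Both RNAs climb with licorice dose, whereas with peony UCA1 is lower at each higher dose and NEAT1 is highest at 20 µg/mL.

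WIZ, the nearest tested gene upstream of UCA1, lies 378255 bases away and was at -0.33 ± 0.07 in peony high (adjusted p = 0.00112) and -0.10 ± 0.07 in licorice high (adjusted p = 0.258). The genes most like UCA1 over the 22 group means were HM13 (r = 0.92), which encodes signal peptide peptidase, PODXL (0.86), a sialomucin of the cell surface, and ANKRD1 (0.85), a target of YAP signalling.

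The snoRNA hosts had different orders of groups. GAS5 was highest with wortmannin, at 84.5, 87.7 and 92.7 CPM, against 64.3, 68.7 and 68.7 CPM in vehicle (0.39 ± 0.06). With LY294002 it overlapped vehicle, at 66.9, 72.6 and 71.3 CPM (0.06 ± 0.06), and wortmannin was 0.33 ± 0.06 above LY294002. Thioridazine gave 74.9, 76.5 and 82.1 CPM (0.21 ± 0.06). In the extracts GAS5 was called higher at the high dose of poria (0.31), atractylodes (0.25), ginseng (0.20), angelica (0.31) and peony (0.23), with SE between 0.06 and 0.07. Licorice was the exception: its libraries had 65.8, 66.5 and 66.6 CPM at the low dose, 59.3, 58.0 and 68.4 CPM at the medium dose and 48.8, 47.9 and 48.9 CPM at the high dose. The licorice high dose was at -0.47 ± 0.07 against vehicle and -0.45 ± 0.07 against the low dose. In angelica the high dose (82.09 and 84.99 CPM) was 0.35 ± 0.08 above the low dose (72.64 and 57.99 CPM), and this was 0.20 and not called without replicate 2 of the low dose. Leaving out either library of the high dose also ended this call. The atractylodes high value was 0.15 and not called without its replicate 1 (90.75 CPM), 1 of 3 libraries that stood farthest from their groups. The ginseng call was lost whichever of the ginseng high or vehicle libraries was left out. Over the alternatives the peony high value was as low as 0.14, and the peony call was lost without vehicle replicate 1.

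SNHG1 was lowest with thioridazine, at 24.03, 22.01 and 25.82 CPM, against 35.3, 39.3 and 34.6 CPM in vehicle (-0.60 ± 0.06). LY294002 was also wholly below vehicle, at 32.6, 28.7 and 28.3 CPM (-0.29 ± 0.06), and wortmannin was below but not called (33.0, 33.7 and 32.7 CPM, -0.14 ± 0.06). Among the extracts it was called higher at the high dose of poria (0.23), ginseng (0.21), angelica (0.36) and peony (0.21), and it overlapped vehicle in licorice high (32.32, 34.99 and 36.62 CPM). Unlike GAS5, it was not called in licorice high (-0.07 ± 0.06). The poria, ginseng and peony calls of SNHG1 were lost without vehicle replicate 1 or 3, while those of thioridazine, LY294002 and angelica were kept under every alternative run.

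SNHG12 had vehicle near the bottom of its order: vehicle libraries held 14.6, 14.6 and 14.2 CPM, and 16 of 21 groups lay wholly above them. Per comparison with vehicle, this held for 8.84% to 30.3% of all genes, and 0.117% to 24.6% were called higher (median 2.73%). All 18 extract groups had a positive log2 fold change and 10 were called, of which 5 kept the call under every alternative run. The largest was in peony high (21.7 and 21.8 CPM, 0.59 ± 0.12). These comparisons share the vehicle libraries, so a low vehicle and a higher level in the extracts cannot be told apart. Peony varied little with dose, at 21.7 and 19.8 CPM at the low dose and 20.6 and 20.9 CPM at the medium dose. Thioridazine (13.1, 12.7 and 11.2 CPM) and wortmannin (13.5, 13.6 and 13.4 CPM) lay below every vehicle library without a call. SNHG12 was called in 0 of the 6 comparisons of high with low dose.

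**Figure D4:**
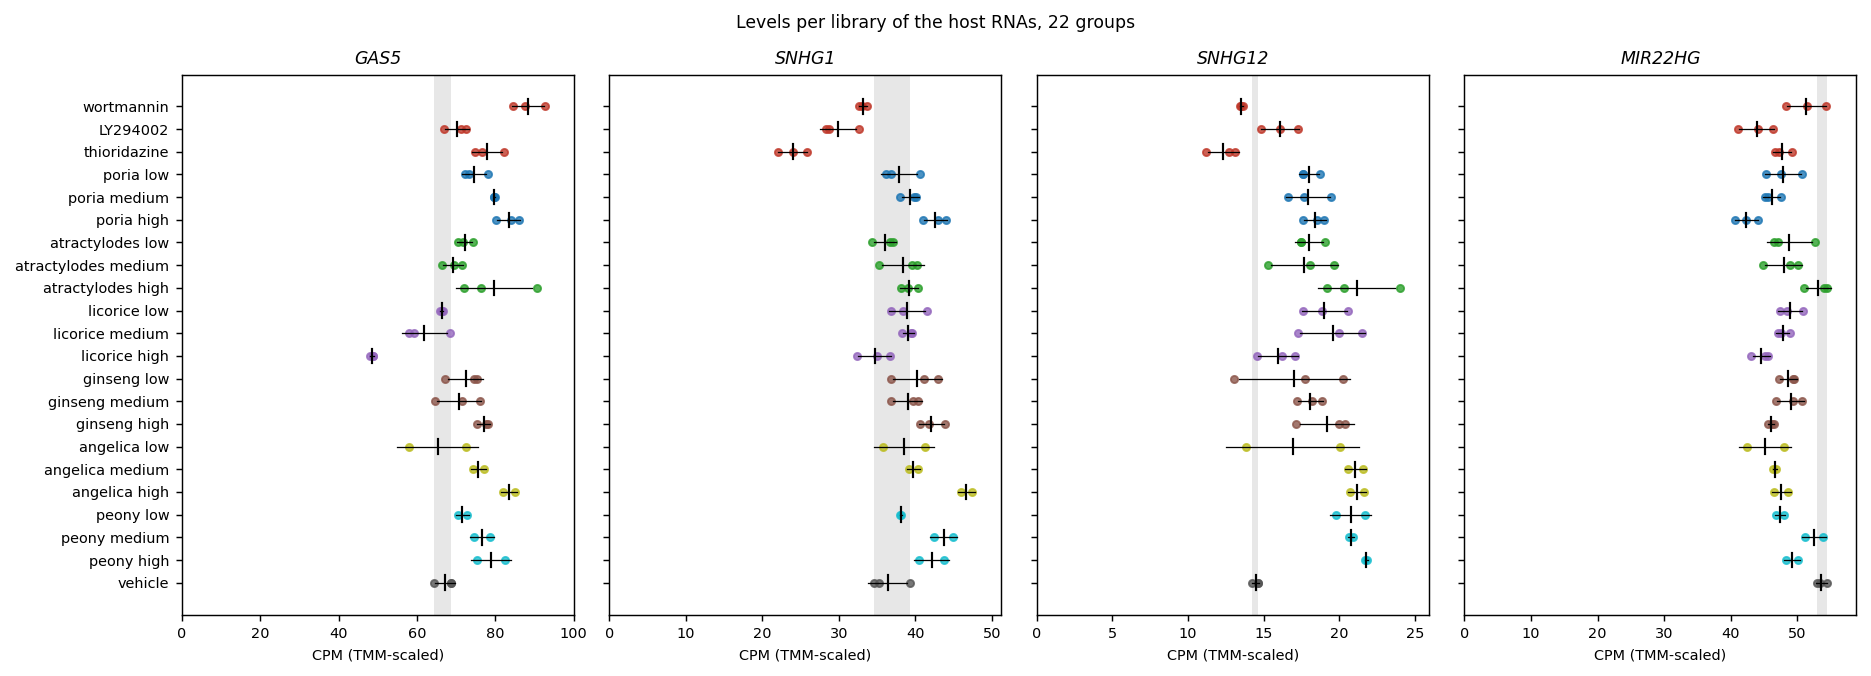
CPM of GAS5, SNHG1, SNHG12 and MIR22HG (horizontal axes) in every library, laid out by group with vehicle at the bottom; points are libraries, vertical ticks group means, horizontal lines 1 SD, and the grey band the vehicle range. GAS5 is lowest in licorice high (48.6 CPM), SNHG1 and SNHG12 are lowest with thioridazine (24.0 and 12.3 CPM), and MIR22HG is highest in vehicle (53.6 CPM).

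Among 26 other snoRNA host RNAs, 25 were tested. With wortmannin 8 were higher and 1 lower (15.4% of all genes higher and 16.4% lower), with a median of 0.09 beside 0.02 for all genes. ZFAS1 had 83.1, 85.1 and 86.8 CPM, against 52.999, 50.457 and 47.469 CPM in vehicle (0.76 ± 0.06, edgeR adjusted p = 1.14e-14). SNHG5, another host with a pyrimidine start, was at 44.3, 47.1 and 45.5 CPM, against 26.7, 28.0 and 25.8 CPM in vehicle (0.76 ± 0.11, adjusted p = 7.76e-07). LY294002 had 9 higher and 3 lower (19.4% and 19.9% of all genes). Thioridazine had 6 higher and 6 lower, a share near that of all genes (24.6% and 23.8%): SNHG5 rose there (0.64 ± 0.11, adjusted p = 7.36e-06) while SNHG3 fell (-0.29 ± 0.06, adjusted p = 3.10e-05). Licorice high had 1 higher and 8 lower (15.9% and 15% of all genes), and the counts were equal against its low dose (9.02% and 9.14% of all genes). In it SNHG5 (-0.49 ± 0.12, adjusted p = 0.00169), ZFAS1 (-0.31 ± 0.06, adjusted p = 0.000157) and SNHG3 (-0.54 ± 0.06, adjusted p = 8.82e-11) were all lower, and SNHG8 (0.55 ± 0.14, adjusted p = 0.00230) was the host that rose. Poria high had 5 higher and 1 lower (5.17% and 6.41% of all genes), and atractylodes high had 6 higher and 1 lower (7.24% and 6.63% of all genes). Ginseng and angelica high had 1 in each direction, shares near the 7.25% and 6.46% of all genes called there.

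Of 15 mRNAs that begin with a pyrimidine tract and encode no ribosomal protein, licorice high had 8 lower and 0 higher and peony high had 9 lower and 0 higher, beside 15% and 10.4% of all genes lower. Wortmannin had 6 lower and 2 higher in this list (16.4% and 15.4% of all genes). Of 16 genes for nonsense-mediated decay, 8 were lower and 1 higher with wortmannin (16.4% and 15.4% of all genes), including SMG5 (-0.39 ± 0.04, adjusted p = 2.11e-10) and UPF3B (-0.45 ± 0.06, adjusted p = 1.12e-08), and 5 were lower and 0 higher with LY294002 (19.9% of all genes lower). In licorice high 1 was lower and 0 were higher.

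SNHG1 shares a promoter region with SLC3A2, which is read in the other direction and encodes the heavy chain of amino acid transporters. The region is printed because this pair differed from vehicle in opposite directions with thioridazine. It covers chr11:62855836-62856135 of GRCh38.p14 (RefSeq), minus strand. The upstream RefSeq start of SLC3A2, on the other strand, is at base 27, with 223 bases between it and the start of SNHG1. The deposited values are per gene, so SLC3A2 counts cannot be assigned to this start. Capitals mark a match to the palindrome known for NRF1 (GCGC, 2 bases of any kind, GCGC) at base 166, a motif that 8.32% of the promoters in the table hold. On both strands, CACGTG (in 7.26% of promoters), TGACGTCA (1.85%), TGATGNAAT (0.991%) and TGACNNNGC (13.3%) had no match in this window.
SNHG1 promoter: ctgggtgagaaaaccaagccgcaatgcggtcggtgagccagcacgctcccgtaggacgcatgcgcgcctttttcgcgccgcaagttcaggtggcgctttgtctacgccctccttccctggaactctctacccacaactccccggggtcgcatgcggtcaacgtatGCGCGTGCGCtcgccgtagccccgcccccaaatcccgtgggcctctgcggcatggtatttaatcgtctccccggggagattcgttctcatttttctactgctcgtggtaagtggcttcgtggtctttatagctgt

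SLC3A2 had 322.7, 321.9 and 341.7 CPM with thioridazine, against 135.8, 149.6 and 140.8 CPM in vehicle (1.21 ± 0.06, edgeR adjusted p = 1.82e-25), where SNHG1 was at -0.60. In licorice high it had 258.5, 251.7 and 260.8 CPM (0.86 ± 0.06, adjusted p = 2.45e-18), where SNHG1 was at -0.07. With LY294002 both were below vehicle (SLC3A2 -0.15 ± 0.06, adjusted p = 0.0305). SLC3A2 is a target of the stress factor ATF4, and of 13 listed ATF4 targets, SLC3A2 among them, 13 were higher with thioridazine (24.6% of all genes) and 10 higher and 1 lower in licorice high (15.9% and 15% of all genes). NEAT1 was above vehicle in both, and also with LY294002, where 5 ATF4 targets were higher and 3 lower (19.4% and 19.9% of all genes). In peony high, 1 ATF4 target was higher and 9 were lower (10.3% and 10.4% of all genes), and NEAT1 lay above every vehicle library without a call. Any link of ATF4 to the levels of NEAT1, SNHG1 or SLC3A2 was not tested.

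**Figure D5:**
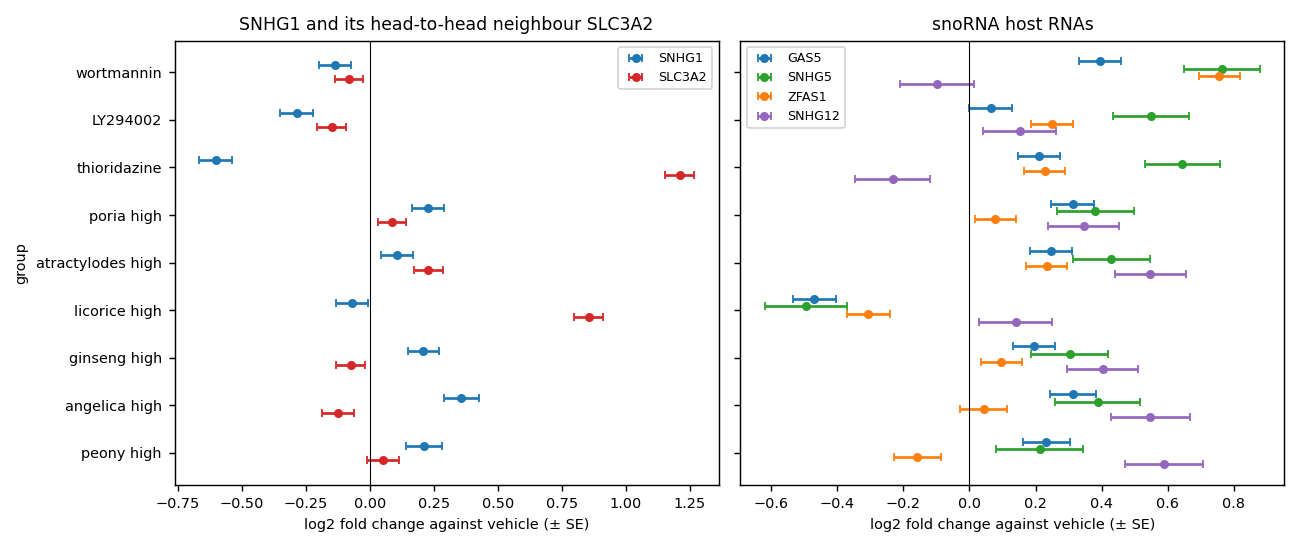
Log2 fold change (± SE) in the 3 drug and 6 high-dose groups against vehicle, for SNHG1 and SLC3A2 (left) and for GAS5, SNHG5, ZFAS1 and SNHG12 (right). SLC3A2 lies at 1.21 and SNHG1 at -0.60 with thioridazine. In licorice high GAS5, SNHG5 and ZFAS1 are below 0, and SNHG12 is above 0 without a call.

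MIR22HG had the smallest ratio between its highest and lowest group means. Vehicle was its highest group, at 54.5, 53.4 and 52.9 CPM, and 18 of 21 groups lay wholly below it; per comparison, this held for 8.64% to 29.1% of all genes. All 21 log2 fold changes were negative and 9 were called, beside 0.301% to 23.8% of all genes called lower per comparison (median 2.5%). They ran from -0.34 ± 0.05 in poria high (44.1, 40.6 and 42.3 CPM) and -0.29 ± 0.05 with LY294002 (46.3, 41.2 and 44.2 CPM) to smaller values. Since every one of these uses the same vehicle libraries, whose code differs from all others, a high vehicle and a low level in the other groups cannot be told apart. Within sets, MIR22HG was called in 1 of 6 comparisons of high with low dose, poria (-0.18 ± 0.05), a call lost without any 1 of 4 of its 6 libraries, and wortmannin was 0.23 ± 0.05 above LY294002. Its neighbour TLCD2, 1055 bases away, rose with thioridazine (1.29 ± 0.11, adjusted p = 6.07e-15), as did WDR81 on the other strand (1.02, adjusted p = 5.22e-20), where MIR22HG was at -0.17 ± 0.05.

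The nuclear RNAs and the hosts were also set against each other as the sum of NEAT1 and MALAT1 over the sum of GAS5, SNHG1 and SNHG12. This ratio averaged 18.3 ± 1.6 in licorice high, 14.7 ± 0.6 with LY294002 and 13.6 ± 1.6 with thioridazine, against 10.3 ± 0.4 in vehicle (SD, n = 3 each). Angelica low (13.5), licorice medium (13.0) and peony low (12.6) were close to thioridazine. The ratio was 9.56 ± 0.36 with wortmannin and 8.04 ± 0.56 in poria high. No library of poria high reached the lowest vehicle value of 9.76, whereas 1 wortmannin library did, with 9.93. All libraries of poria medium (8.32 to 9.51), ginseng high (8.88 to 9.02) and peony high (8.87 to 9.32) were also below 9.76. Across the 22 group means, SNHG1 and SNHG12 had r = 0.80, UCA1 and SNHG12 had r = -0.63, NEAT1 and GAS5 had r = -0.62, and GAS5 had r = 0.15 with SNHG1; all are descriptions over group means that share libraries.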

How the data were processed

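RNA-seq of SW1783 cells was deposited as 1 table of expected counts per gene. Per the submitters' processing notes, the authors used RSEM 1.3.3, STAR 2.7.3a, Trim Galore 0.6.5 and FastQC 0.11.9 on GRCh38; the annotation was not given in the sources used here. Per the labels' protocols, libraries were made with a directional kit. Of 279 columns, 60 matched labelled samples and 219 were not used.

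The deposited expected counts were rounded to whole numbers (9.48% were not whole within 1e-06). Genes were kept by filterByExpr (minimum count 10, minimum total 15), scaled by TMM and tested with edgeR 4.0.16 in R 4.3.3 (quasi-likelihood test over all 22 groups, Benjamini-Hochberg adjustment over 17919 genes, limit 0.05; common BCV 0.0507, median prior df 13.4); DESeq2 1.42.0 was an alternative. Group levels are mean CPM ± SD, and fold changes are those of the edgeR fit. The log2 levels compared over group means use a prior count of 2. The fit was checked on simulated counts. Depth limits UCA1 and H19 most.

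The RNAs, and the gene lists set beside them, were chosen with earlier results of these data known. Beside the 8 RNAs, named genes are the nearest tested neighbours, the 3 genes most alike over group means, and up to 2 called genes per list, direction and comparison with at least 5 CPM; SNHG5 and ZFAS1 were also followed where outside that rule, chosen after their values were seen. Alternatives were other size factors, no filter, a replicate block, only the groups compared, DESeq2 and leaving out in turn each of 44 libraries (all but the medium doses); leaving out the 3 libraries farthest from their groups was added after seeing the data.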

Additional observations from a re-analysis of the deposited data

Results flagged for a closer look

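The effect of raising an extract from 20 to 500 µg/mL had opposite directions in different extracts for NEAT1, UCA1 and GAS5. The difference between extracts was not tested. For NEAT1 the log2 fold change of high against low dose was 0.60 in licorice, -0.51 in poria and -0.68 in peony. For UCA1 it was 0.63 in licorice and -1.5 in peony. For GAS5 it was 0.35 in angelica and -0.45 in licorice. With only the groups compared in the fit, NEAT1 in licorice and poria and GAS5 in angelica were not called. Leaving out some single libraries ended the NEAT1 calls in poria and peony and the GAS5 call in angelica. Angelica and peony had 2 libraries per dose, and over the alternatives GAS5 in angelica was as low as 0.20. The UCA1 calls and the GAS5 call in licorice were kept under every alternative run.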

How the results depend on the processing

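Each of the 67 called differences of single RNAs was recomputed under 9 to 12 alternatives. None changed sign, and 34 kept the call under every alternative run; NEAT1 kept 9 of 17, UCA1 5 of 10, GAS5 6 of 12, SNHG1 3 of 7, SNHG12 5 of 10 and MIR22HG 6 of 11. Of 2170 recomputed log2 fold changes, 2146 moved by less than 1 SD between replicates and 24 moved by more. The 44 libraries of the vehicle, drug, high-dose and low-dose groups were left out in turn and the medium-dose libraries were not, so medium-dose calls had fewer alternatives.

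The number of RNAs called moved by over 1.5 times in these cases among the drug, high-dose and dose comparisons. With only the groups compared in the fit it was 3 for wortmannin against vehicle, 5 for licorice high against vehicle, 5 for licorice high against low and 0 for angelica high against low. With no filter on low counts it was 5 for licorice high against vehicle, 1 for poria high against low, 5 for licorice high against low, 2 for ginseng high against low and 4 for angelica high against low. RLE size factors gave 2 for angelica high against low, and DESeq2 gave 5 for licorice and 2 for angelica. Without the 3 libraries farthest from their groups, chosen after seeing the data, it was 5 for licorice high against vehicle, 7 for licorice high against low and 2 for angelica high against low. Among low and medium doses against vehicle, with only the groups compared it was 3 in poria low and 3 in atractylodes medium (0 as reported), 1 in ginseng medium (0), 4 in peony low (2) and 0 in ginseng low (1). With no filter it was 3 in poria low, 2 in atractylodes medium, 2 in ginseng medium and 2 in atractylodes low (1). DESeq2 gave 2 in poria low and 2 in atractylodes medium; without the 3 libraries it was 1 in each of these and 2 in ginseng low. The cause was not tested. Over all genes the counts called also moved by over 1.5 times in many comparisons. For atractylodes high against vehicle they were 586 with only the groups compared and 1257 without the 3 libraries, beside 2485 as reported. The count was 6 for angelica high against low with only the groups compared, beside 169 as reported, 752 in poria low with only the groups compared, beside 75, and 815 in ginseng low without the 3 libraries, beside 106.

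The replicate block gave 5 RNAs for licorice high against low and 2 for angelica high against low; it also gave 1 for atractylodes medium, where 0 were called without it. It ended no call and added 8, among them NEAT1 in peony high (0.37 ± 0.12, SE) and atractylodes medium (0.46 ± 0.11) and MALAT1 with LY294002 (0.28 ± 0.11). The block gave a replicate number the same term in every set. NEAT1 replicate 2 deviated by 0.17 in set 2 and by -0.01 in set 3. The block cannot remove such differences within a set, and nothing is read from the calls kept under it. In no comparison did every pair of same-numbered libraries deviate together with a correlation over 0.1, so the numbers were not taken as pairs. For high against low dose, the mean correlation of same-numbered pairs was 0.31 in atractylodes, 0.15 in poria and 0.10 in licorice. It was negative in ginseng, angelica and peony. NEAT1 followed the replicate number within sets 2 and 3, and the SE of its dose differences leaves this out.

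Leaving out 1 library at a time, the number called ranged over 1 to 1 for wortmannin, 3 to 4 for LY294002, 4 to 5 for thioridazine and 3 to 5 for wortmannin against LY294002. For the high dose against vehicle it was 2 to 4 for poria, 2 to 3 for atractylodes, 3 to 4 for licorice, 1 to 4 for ginseng, 2 to 4 for angelica and 2 to 4 for peony. For the high against the low dose it was 0 to 1 for poria, 0 to 1 for atractylodes, 3 to 4 for licorice, 0 to 0 for ginseng, 0 to 3 for angelica and 1 to 2 for peony. A lone library left in a group was assumed to vary like the others. Depth limits UCA1, with 36 to 207 counts per library, and H19, with 0 to 6.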
